A study of Mus musculus with 30 samples.

Results

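The replication-dependent histone genes were followed through mouse microglia prepared by 5 protocols, with and without the alarmin HMGB1. They were taken from the gene count table as the protein-coding entries whose name starts with Hist1h, Hist2h, Hist3h or Hist4h, and 67 of the 54532 entries met this rule, of 22046 that were protein-coding. Another 3 entries with such a name were not protein-coding and were left out. By class there were 6 genes for the linker histone H1, 18 for H2A, 18 for H2B, 12 for H3 and 13 for H4. The name rule also takes in Hist1h1t, Hist1h2aa and Hist1h2ba, which are known as testis forms. Over the 30 libraries, 11 of the 67 genes averaged 1 CPM or more (CPM is the count over the library total times 1000000), and 56 averaged less.

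All cells came from C57/B6 brains. In Protocol 1, microglia of neonates aged 0 to 3 days were shaken off mixed glial cultures, each made from 5 mice, with distinct litters for each replicate. The mixed cultures were kept for 10 days in Protocol 1A, which received GM-CSF at 0.5 ng/ml, for 10 days without this factor in Protocol 1B, and for 21 days in Protocol 1C, again at 0.5 ng/ml. Protocol 2 took adult microglia of mice aged 6 to 8 weeks by adherence, pooled 3 brains and kept the cells in culture for 7 days, adding GM-CSF (100 ng/ml) together with M-CSF (100 ng/ml). Protocol 3 took adult microglia of the same age range with anti-CD11b magnetic beads and used them at 0 days of culture. Each protocol had 3 libraries of cells given HMGB1 for 4 h and 3 Control libraries, so that each of the 10 groups had 3 libraries. In such bulk libraries, fewer cells of a kind and less RNA per cell cannot be told apart.

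The library totals lay between 14151983 and 28564757 counts. The microglia markers Cx3cr1, Csf1r, Aif1, Itgam, Tmem119, P2ry12 and Fcrls had reads in each group, with group means of Csf1r between 620.0 CPM in Protocol 2 Control libraries and 2056 CPM in Protocol 3 Control libraries. Tmem119 averaged 0.370 CPM in Protocol 1C HMGB1 libraries, the lowest group, and 55.2 CPM in Protocol 3 Control libraries, the highest. Markers of other cells differed between protocols. The 7 genes of neutrophils and their precursors summed to 402 ± 162 CPM in HMGB1 and 412 ± 180.1 CPM in Control libraries of Protocol 3, and averaged at most 15.7 CPM in any other group. The 4 erythroid genes summed to 413 ± 92.6 and 466 ± 132 CPM there and stayed below 1 CPM in the other groups. In Protocol 2 the 5 fibroblast genes summed to 259.6 ± 91.2 CPM in HMGB1 and 223 ± 54.8 CPM in Control libraries, and the 3 pituitary genes to 109.5 ± 156 and 123 ± 162 CPM.

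Nucleosomes are built from a core of H2A, H2B, H3 and H4, with H1 on the linker DNA between them. The genes named here supply these proteins while DNA is copied in S phase, and most lie in clusters. Their mRNAs are unusual in that they normally carry no poly(A) tail and end a few bases past a short stem-loop, which is bound by the stem-loop binding protein Slbp. Some of them can also be cut further downstream and given a poly(A) tail, which has been described in cells that have stopped dividing. The libraries were made as mRNA sequencing with a NEBNext Ultra II kit, and whether poly(A) RNA was selected is not given in the sources used here. A gene whose mRNA carries no tail is not captured by such a selection, so the levels below are those of whatever RNA entered the libraries.

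The stem-loop is shown first, because the genes differ in how far their annotated models run on past it and the levels are set beside this distance. The histone stem-loop consensus (6 stem bases, a loop of 4 bases and the complementary 6 bases) was searched in the transcripts of the annotation whose gene positions match the count table (GENCODE mouse release M21, build GRCm38). A transcript of 46 of the 67 genes held it. The commonest form was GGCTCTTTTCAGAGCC in 26 genes, followed by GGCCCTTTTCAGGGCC in 7 genes, all of them for H4, and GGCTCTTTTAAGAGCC in 6 genes. The remaining 7 genes carried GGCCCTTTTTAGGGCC or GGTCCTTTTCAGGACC, 2 genes each, or 1 of 3 forms seen in 1 gene. Below, capitals mark the 16 bases of stem and loop and lower case the 5 bases on either side, for 3 genes of the highest levels and, as examples of lower ones, Hist1h4h and Hist1h3e.
Hist1h1c: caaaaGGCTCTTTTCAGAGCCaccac
Hist3h2a: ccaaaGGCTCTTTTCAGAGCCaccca
Hist1h4i: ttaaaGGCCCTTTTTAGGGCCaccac
Hist1h4h: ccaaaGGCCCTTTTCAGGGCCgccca
Hist1h3e: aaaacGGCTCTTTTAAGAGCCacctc

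The Hist1h1c model (chr13:23738808-23740367, plus strand) ran on for 840 bases past this stem-loop, that of Hist3h2a (chr11:58954685-58956830, plus strand) for 1643 bases and that of Hist1h4i (chr13:22040636-22041362, minus strand) for 330 bases. By contrast the Hist1h4h model (chr13:23531050-23531519, plus strand) stopped 46 bases past it. Of the 23 genes whose longest model ran on for more than 100 bases, 9 averaged 1 CPM or more, and the median of the 23 was 0.650 CPM. In another 23 genes, every transcript that held the stem-loop stopped within 100 bases of it. Of these, 0 reached 1 CPM, the median was 0.133 CPM, and the highest, Hist1h4h, had 0.650 CPM. The other 21 genes had no stem-loop in any annotated transcript. Their gene lengths ran from 312 to 2620 bases, with a median of 405. A model that stops short of the stem-loop cannot show it, and which of these models do so was not tested. The stem-loop is missing from these models, and whether the genes lack it was not tested either. Among the 21 genes were Hist1h2bc (chr13:23684199-23692908, plus strand) and Hist2h2be (chr3:96221119-96223738, plus strand), the only 2 of them at 1 CPM or more. Their gene lengths were 1156 and 2620 bases, both above the median of 405, and why they show no stem-loop was not tested. The median of the 21 was 0.102 CPM.

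Longer models collect more reads, so the same levels were also taken per kb of gene length. The medians were then 0.347 CPM per kb for models that ran on, 0.224 CPM per kb for those that stopped within 100 bases and 0.166 CPM per kb for those with no stem-loop. The groups overlapped widely, and the highest value per kb was 60.7 for Hist1h1c among the models that ran on, 1.41 for Hist1h4m among the short ones and 51.3 for Hist1h2bc among those with no stem-loop. Shared sequence differed along with the model end. A median of 24.6% of the 50-base windows of a gene occurred in another gene, histone or not, where the model ran on, 60.4% where it stopped within 100 bases and 85.8% where it had no stem-loop, and reads in such windows can be lost or misplaced. The part of model length and shared sequence in the order of the levels was not tested.

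**Figure D1:**
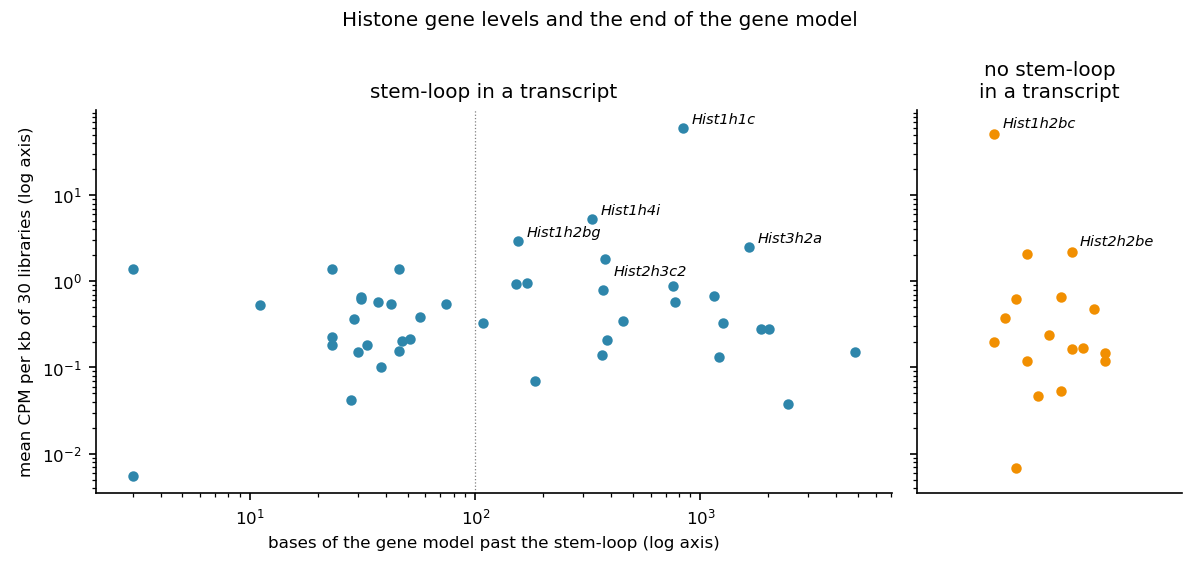
Mean level over 30 libraries (CPM per kb of gene length, log axis) of the histone genes against the bases of the gene model past the stem-loop (log axis, left) and of genes with no stem-loop in a transcript (right). Each point is 1 gene, the dotted line stands at 100 bases, and genes with 0 counts in all libraries are not drawn. Hist1h1c and Hist1h2bc, at 60.7 and 51.3 CPM per kb, lie far above the other genes, which reach at most 5.30.

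A pair of genes made up most of the histone signal. Hist1h1c, which encodes the linker histone H1.2, averaged 94.7 CPM over the 30 libraries and Hist1h2bc, an H2B gene, averaged 59.3 CPM. Another H2B gene, Hist2h2be, had 5.71 CPM, the H2A gene Hist3h2a 5.33 CPM and the H4 gene Hist1h4i 3.85 CPM. The other 6 genes at 1 CPM or more were Hist2h3c2 (1.85 CPM) and Hist1h3d (1.10 CPM) for H3, Hist1h2bg (1.80 CPM) and Hist1h2be (1.25 CPM) for H2B, and Hist1h1e (1.30 CPM) and Hist1h1d (1.12 CPM) for H1. Hist1h3d, at 1.10 CPM, was the lowest of the 11, and Hist1h2ac, at 0.700 CPM, the highest of those below 1 CPM. Per kb of gene length the order was Hist1h1c with 60.7, Hist1h2bc with 51.3, Hist1h4i with 5.30, Hist1h2bg with 2.91, Hist3h2a with 2.48 and Hist2h2be with 2.18 CPM per kb.

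The sum of the 67 mean levels was split unequally between classes, with 51.4% in H1, 37.3% in H2B, 4.35% in H2A, 4.21% in H4 and 2.70% in H3. By cluster, 54 genes of the Hist1 cluster on chromosome 13 held 92.4% of the sum, 10 Hist2 genes on chromosome 3 held 4.37%, 2 Hist3 genes on chromosome 11 held 3.12% and Hist4h4 on chromosome 6 held 0.0573%. At the other end, 7 genes had 0 counts in every library. Of these, Hist2h2aa1, Hist2h2aa2, Hist2h3b, Hist2h3c1 and Hist2h2bb had every 50-base window in common with another gene, in part genes annotated over them, so that a count of 0 says nothing of their RNA. The other 2 were the testis forms Hist1h2aa and Hist1h2ba. At least 50% of the windows were shared in 34 of the 67 genes, and the split of reads between such copies or overlapping genes is uncertain.

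Promoter sequence is shown for Hist1h1c and Hist3h2a, a gene that fell and a gene that rose after HMGB1 in Protocol 1. The 130 bases before each start site are from RefSeq (GRCm38.p6), with capitals for the motifs searched on both strands, the CCAAT box, the TATAA box, the octamer ATTTGCAT and the box AAACACA known from H1 promoters.
Hist1h1c promoter, chr13:23738677-23738806, plus strand: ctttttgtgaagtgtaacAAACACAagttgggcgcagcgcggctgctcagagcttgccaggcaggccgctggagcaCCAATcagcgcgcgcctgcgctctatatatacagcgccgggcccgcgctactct
Hist3h2a promoter, chr11:58954555-58954684, plus strand: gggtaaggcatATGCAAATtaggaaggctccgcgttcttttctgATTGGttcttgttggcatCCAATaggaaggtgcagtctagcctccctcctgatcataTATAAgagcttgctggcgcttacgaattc
The Hist1h1c stretch held the H1 box and a CCAAT box, and the Hist3h2a stretch held the octamer, a CCAAT box on either strand and the TATAA box. Promoters of 62 of the 67 genes were matched by symbol or gene ID, and in windows of 300 bases around the start 53 of the 62 held the CCAAT box, 49 the TATAA box, 13 the octamer and 9 the H1 box. Among all 32851 promoter windows of the same length the shares were 37.4%, 24.9%, 1.74% and 7.18% in the same order. A match of letters is a description and not a bound site.

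The summed histone level was highest in the cultured adult microglia and lowest in the freshly isolated ones, with and without HMGB1. After HMGB1 the 67 genes summed to 107 ± 3.91 CPM in Protocol 1B, 82.2 ± 7.78 CPM in Protocol 1C, 64.0 ± 4.07 CPM in Protocol 1A, 483 ± 39.4 CPM in Protocol 2 and 35.5 ± 6.78 CPM in Protocol 3 (SD, n = 3 each). In Control libraries the sums were 216 ± 6.76 CPM in Protocol 1B, 184 ± 11.3 CPM in Protocol 1C, 135 ± 9.08 CPM in Protocol 1A, 549.9 ± 22.2 CPM in Protocol 2 and 38.8 ± 7.01 CPM in Protocol 3. In each variant of Protocol 1 the 3 HMGB1 libraries lay below the 3 Control libraries, and in Protocol 2 the highest HMGB1 library, at 526.8 CPM, lay just below the lowest Control library, at 529.9 CPM. In Protocol 3 the groups overlapped. The pair Hist1h1c and Hist1h2bc held 79.4%, 84.2% and 75.2% of the sum in Controls of 1B, 1C and 1A, 86.8% in those of Protocol 2 and 40.2% in those of Protocol 3. Without the pair the Control sums were 44.4 ± 3.67 CPM in Protocol 1B, 28.9 ± 2.92 CPM in Protocol 1C, 33.5 ± 2.09 CPM in Protocol 1A, 72.9 ± 5.16 CPM in Protocol 2 and 23.1 ± 3.95 CPM in Protocol 3.

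The make-up by class also differed. In Protocol 1 the H2A share of the histone signal was 10.97% in HMGB1 and 4.14% in Control libraries of 1A, 10.01% and 4.96% in those of 1B, and 11.4% and 3.20% in those of 1C. The H2A sum itself was 7.05 ± 1.02 CPM in HMGB1 and 5.56 ± 0.856 CPM in Control libraries of 1A, 10.7 ± 0.689 and 10.7 ± 2.06 CPM in those of 1B, and 9.35 ± 0.274 and 5.84 ± 1.03 CPM in those of 1C, while the H1 and H2B sums were lower in HMGB1 libraries of all 3. The H2A share was 2.59% in HMGB1 and 2.54% in Control libraries of Protocol 2, and 9.09% and 9.74% in those of Protocol 3. These sums and shares are descriptions with no test. They also use library totals alone, and with the TMM factors of edgeR, which scale each library by its trimmed mean, the Protocol 1 sums were closer together, at 71.3 CPM in HMGB1 and 110.1 CPM in Control libraries of 1A, 122 and 178 CPM in those of 1B, and 108 and 157 CPM in those of 1C.

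**Figure D2:**
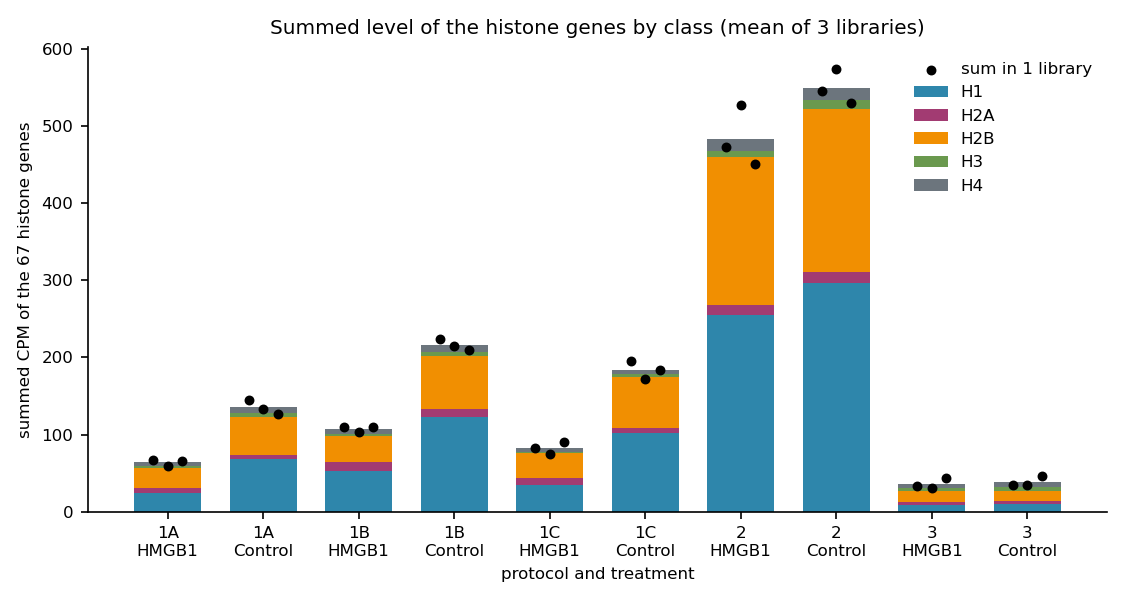
Summed CPM of the 67 histone genes by class, as stacked bars of the mean of 3 libraries for each protocol and treatment, with a black point for the sum in each library. The Protocol 2 bars reach 483 CPM with HMGB1 and 549.9 CPM in Control, and H1 and H2B fill most of every Protocol 1 and Protocol 2 bar.

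The Control libraries were compared between methods to see how the histone genes differed in cells given no HMGB1. Against freshly isolated Protocol 3 cells, the most abundant histone genes were higher in both kinds of cultured microglia, and Hist1h1c and Hist1h2bc were lower in Protocol 1 than in Protocol 2. Of the 67 genes, 33 passed the filter on low counts in the fit of the 15 Control libraries. In the fits within a protocol 31 passed in Protocol 2 and 16, 19, 14 and 19 in Protocols 1A, 1B, 1C and 3. A gene that entered the 33 only through Protocol 2 had to be higher there, so the counts and medians that follow lean towards Protocol 2 and only describe the genes tested. In Protocol 2 over Protocol 3, 17 of them were higher (of all genes tested, 40.1% were) and 2 were lower (37.2%), and their median log2 fold change was 1.22, against 0.08 for all genes. In Protocol 1 over Protocol 2, with 1A, 1B and 1C averaged, 0 were higher (24.6% of all genes, and no histone gene was higher at an unadjusted p below 0.05 or by DESeq2) and 21 were lower (30.7%), with a median of -1.47, against -0.02 for all genes. For Protocol 1 over Protocol 3 the counts were 8 higher (37.3%) and 7 lower (42.9%), with a median of -0.25, against -0.12. These 3 comparisons share Control libraries, and calls are edgeR quasi-likelihood tests with a Benjamini-Hochberg adjusted p below 0.05 over all genes.

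Hist1h1c had 130.4, 117 and 113 CPM in Protocol 1B Controls, 111, 95.2 and 94.8 CPM in 1C, 74.1, 63.4 and 58.8 CPM in 1A, 292, 297 and 280.2 CPM in Protocol 2 and 8.45, 5.82 and 9.28 CPM in Protocol 3. The ranges of the 3 methods did not overlap. Its log2 fold change was 4.89 (SE 0.139, adjusted p = 4.28e-16) for Protocol 2 over Protocol 3, 3.11 (SE 0.122, adjusted p = 2.07e-14) for Protocol 1 over Protocol 3 and -1.78 (SE 0.0856, adjusted p = 7.91e-12) for Protocol 1 over Protocol 2 in edgeR. Hist1h2bc had 52.3, 54.3 and 48.8 CPM in Protocol 1B Controls, 58.2, 47.7 and 57.7 CPM in 1C, 36.7, 34.8 and 37.4 CPM in 1A, 184, 198 and 180.3 CPM in Protocol 2 and 6.24, 7.17 and 9.88 CPM in Protocol 3. Its order was the same, with 4.27 (SE 0.129, adjusted p = 2.78e-16) for Protocol 2 over Protocol 3, 2.14 (SE 0.111, adjusted p = 5.53e-13) for Protocol 1 over Protocol 3 and -2.14 (SE 0.0815, adjusted p = 1.68e-13) for Protocol 1 over Protocol 2. All 6 of these calls were kept with any 1 Control library left out and under every alternative scaling, filter and test.

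Hist2h2be did not follow this order. It had 13.1, 11.8 and 12.3 CPM in Protocol 1B Controls, 8.94, 6.40 and 7.21 CPM in 1C, 9.77, 8.19 and 8.20 CPM in 1A, 8.49, 9.23 and 7.78 CPM in Protocol 2 and 2.48, 2.13 and 3.17 CPM in Protocol 3. Protocols 1A, 1C and 2 overlapped, 1B lay above them and Protocol 3 below. The log2 fold change of Protocol 1 over Protocol 2 was -0.00 (SE 0.127, adjusted p = 1.000), while Protocol 2 over Protocol 3 gave 1.39 (SE 0.176, adjusted p = 5e-07) and Protocol 1 over Protocol 3 gave 1.39 (SE 0.154, adjusted p = 6.06e-08) in edgeR. Hist3h2a had 5.39, 7.53 and 5.37 CPM in Protocol 1B Controls, 3.04, 4.06 and 5.23 CPM in 1C, 2.56, 2.28 and 2.94 CPM in 1A, 8.78, 8.77 and 8.76 CPM in Protocol 2 and 0.964, 0.782 and 1.45 CPM in Protocol 3. Every Protocol 2 value was above every Protocol 1 value, and every Protocol 3 value was below them, with log2 fold changes of -1.26 for Protocol 1 over Protocol 2 and 2.72 for Protocol 2 over Protocol 3.

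Among the less abundant genes, Hist1h4i had 4.13, 6.30 and 5.31 CPM in Protocol 1B Controls, 2.23, 3.63 and 2.88 CPM in 1C, 3.58, 3.91 and 2.88 CPM in 1A, 8.07, 7.95 and 7.62 CPM in Protocol 2 and 1.47, 1.48 and 1.93 CPM in Protocol 3. The H3 gene Hist2h3c2 had 1.98, 1.28 and 1.52 CPM in Protocol 1B Controls, 0.683, 1.39 and 1.93 CPM in 1C, 1.16, 0.760 and 1.83 CPM in 1A, 5.22, 6.51 and 7.29 CPM in Protocol 2 and 0.597, 0.348 and 1.37 CPM in Protocol 3. Both were highest in Protocol 2, with 1.96 and 2.71 for Protocol 2 over Protocol 3, and 63.5% of the windows of Hist2h3c2 are shared with another gene. Hist1h3d had 0.165, 0.461 and 1.201 CPM in Protocol 1B Controls, 0.931, 0.908 and 0.707 CPM in 1C, 0.605, 0.543 and 0.277 CPM in 1A, 3.73, 4.65 and 3.22 CPM in Protocol 2 and 1.15, 1.61 and 1.89 CPM in Protocol 3. It thus differed from the genes above in that Protocol 1 was below Protocol 3, at -1.76 (SE 0.346, adjusted p = 0.000105), as well as below Protocol 2, at -2.76 (SE 0.318, adjusted p = 4.08e-07) in edgeR.

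Other genes lower in Protocol 1 than in Protocol 3 were, with their log2 fold changes, Hist1h4d, at -2.03 (SE 0.486, adjusted p = 0.000747), Hist1h4c, at -1.73 (SE 0.592, adjusted p = 0.0118), Hist1h2ad, at -2.12 (SE 0.636, adjusted p = 0.00482), Hist2h2ac, at -1.89 (SE 0.770, adjusted p = 0.0306), Hist1h1e, at -0.81 (SE 0.323, adjusted p = 0.0267), and Hist1h2be, at -0.79 (SE 0.295, adjusted p = 0.0195) in edgeR. They code for H4, H2A, H1 and H2B. The linker gene Hist1h1e had 0.990, 1.02 and 2.09 CPM in Protocol 1B Controls, 0.807, 1.10 and 0.707 CPM in 1C, 1.30, 2.22 and 0.998 CPM in 1A, 1.90, 2.59 and 1.43 CPM in Protocol 2 and 1.01, 2.09 and 1.57 CPM in Protocol 3, so the groups overlapped. Its model and that of Hist1h2be overlap on the same strand, and their reads cannot be fully told apart. The count of 7 lower genes was 4 without Protocol 3 Control replicate 3, and 3 both with library totals in place of TMM factors and with only the compared groups in the fit. Hist1h3d, Hist1h4c and Hist1h4d kept the call with any 1 library left out, though Hist1h4c lost it under library totals (adjusted p = 0.0567). Hist1h4c was also not tested, and so not called, with only the compared groups in the fit. Of the 8 higher genes, Hist1h1c, Hist1h2bc, Hist2h2be, Hist3h2a and Hist1h4i kept the call with any 1 library left out. Hist1h4k, Hist1h2ao and Hist1h2bg did not, each being lost without Protocol 3 Control replicate 3 (adjusted p = 0.0839, 0.124 and 0.0968) and without at least 2 others.

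In Protocol 1 over Protocol 2, the 21 lower genes came from every class. The H1 gene Hist1h1d had a log2 fold change of -2.83, the H2B genes Hist1h2bj, Hist1h2be and Hist1h2bg -3.32, -2.38 and -1.93, and the H2A genes Hist1h2ad and Hist1h2ac -3.22 and -2.46. Hist1h2ac had 0.660, 1.23 and 1.201 CPM in Protocol 1B Controls, 0.186, 0.239 and 0.283 CPM in 1C, 0.0930, 0.380 and 0.277 CPM in 1A, 1.16, 2.51 and 2.28 CPM in Protocol 2 and 0.321, 0.521 and 0.321 CPM in Protocol 3. Hist1h4h, whose model stops near the stem-loop, had 0.330, 0.410 and 1.07 CPM in Protocol 1B Controls, 0.372, 0.717 and 0.566 CPM in 1C, 0.0465, 0.434 and 0.554 CPM in 1A, 2.11, 1.89 and 1.43 CPM in Protocol 2 and 0.138, 0.348 and 0.562 CPM in Protocol 3. Every Protocol 2 value of Hist1h4h lay above all the others, and Protocol 1 over Protocol 2 gave -2.03 (SE 0.441, adjusted p = 0.000587) in edgeR. With any 1 of the Control libraries left out, 18 of the 21 genes kept the call, the exceptions being Hist1h1e, Hist1h2bh and Hist1h2bq. Those 3 were lost without Protocol 2 Control replicate 2 (adjusted p = 0.212, 0.114 and 0.113), and leaving out that library made Hist1h3c higher (log2 fold change 5.92, adjusted p = 0.00121).

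The 17 genes higher in Protocol 2 than in Protocol 3 also included Hist1h4k (2.92), Hist3h2ba (2.90), Hist1h1d (2.74) and Hist1h2bg (2.55), and 14 of the 17 kept the call with any 1 library left out, Hist1h2bn, Hist1h2bq and Hist1h3d being lost. The 2 lower genes were Hist2h2ac, at -2.83 (SE 1.09, adjusted p = 0.0241), and Hist1h4d, at -1.83 (SE 0.636, adjusted p = 0.0136) in edgeR. Both were lost without Protocol 2 Control replicate 1 (adjusted p = 0.0549 and 0.0583) and without its replicate 3 (adjusted p = 0.0924 and 0.0676). Without its replicate 2 the number of lower genes was 4, and without Protocol 3 Control replicate 3 it was 1.

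Age, culture, growth factors and isolation differ together between the 3 methods and cannot be told apart. RNA quality differed too, as the paper reports lower RNA yield and integrity for the freshly isolated adult microglia than for the cultured adult ones. The part of RNA quality in the histone levels was not tested. Other RNAs moved with the methods as well: markers of neutrophils and erythroid cells were higher in Protocol 3 and markers of fibroblasts in Protocol 2 (values above). The 13 listed RNAs that carry no poly(A) tail, such as Rn7sk, summed to 49.3 ± 20.9 CPM in 1B, 47.1 ± 12.4 CPM in 1C, 92.5 ± 23.6 CPM in 1A, 59.0 ± 31.5 CPM in Protocol 2 and 351 ± 107 CPM in Protocol 3 Controls. The part of these RNAs in the histone levels was not tested. Scaling by library totals moved the median log2 fold change of all genes to 0.33 for Protocol 1 over Protocol 3, 0.11 for Protocol 1 over Protocol 2 and 0.39 for Protocol 2 over Protocol 3. The genes called were then 6347 higher and 7299 lower with TMM factors and 7925 higher and 5668 lower with library totals for Protocol 1 over Protocol 3, and 4189 higher and 5228 lower with TMM factors and 5632 higher and 4341 lower with library totals for Protocol 1 over Protocol 2.

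**Figure D3:**
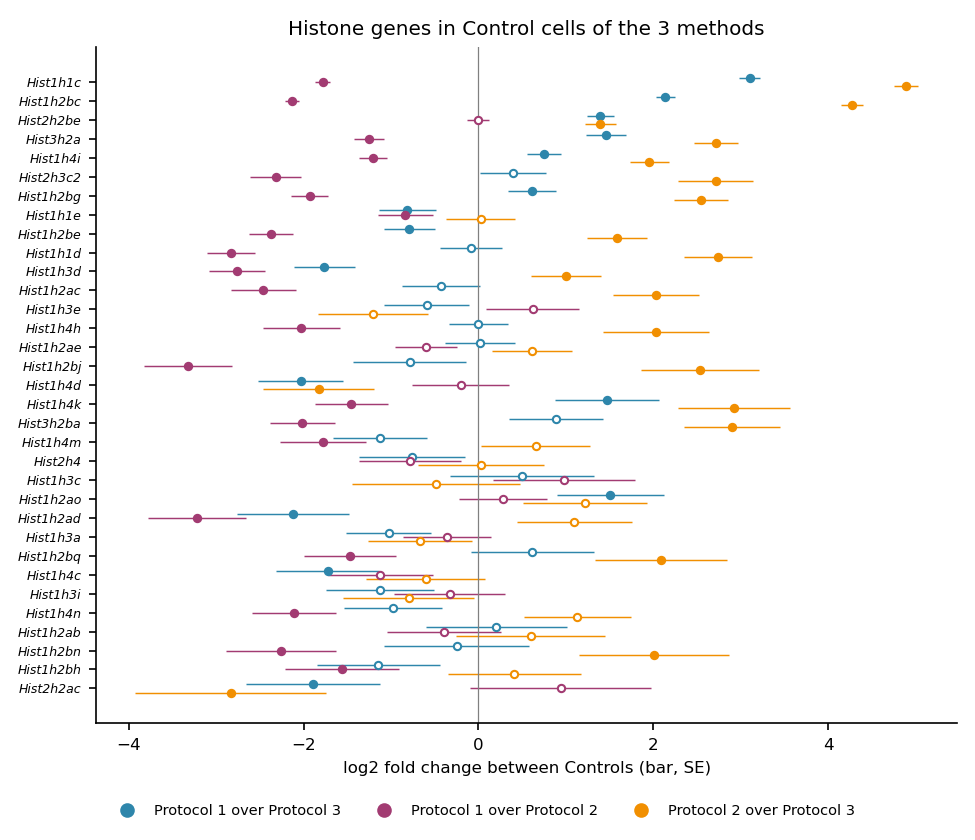
Log2 fold change between Control libraries (x axis, bar for SE) of the 33 histone genes tested, in order of mean level, for Protocol 1 over Protocol 3, Protocol 1 over Protocol 2 and Protocol 2 over Protocol 3. Filled points have an adjusted p below 0.05 and open points do not. All filled points of Protocol 1 over Protocol 2 lie left of 0, and 17 of the 19 filled points of Protocol 2 over Protocol 3 lie right of it.

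Within Protocol 1, cells grown without GM-CSF and cells kept longer in mixed culture each had more Hist1h1c and Hist1h2bc than those of 1A. Markers of other cells differed between these Controls too. The 5 fibroblast genes summed to 61.9 ± 39.5 CPM in 1B, 75.4 ± 26.4 CPM in 1C and 2.25 ± 0.902 CPM in 1A, where Lum was at 0, and the 4 endothelial genes to 8.58 ± 2.59, 51.7 ± 4.72 and 15.2 ± 4.67 CPM in the same order. Their part in the histone levels was not tested. In Protocol 1B over 1A, 7 of the 33 genes were higher (18.2% of all genes) and 0 were lower (12.6%, and 0 by DESeq2, with none lower at an unadjusted p below 0.05). The Control values of Hist1h1c given above do not overlap between these groups, and its log2 fold change was 0.93 (SE 0.116, adjusted p = 6.14e-06) in edgeR. Hist3h2a changed by 1.28 (SE 0.239, adjusted p = 0.000349), Hist1h2bc by 0.56 (SE 0.113, adjusted p = 0.000754), Hist3h2ba by 2.73 (SE 0.629, adjusted p = 0.00232) and Hist1h2ac by 2.08 (SE 0.556, adjusted p = 0.00709) in edgeR. Hist2h2be (0.56) lost its call without 1A Control replicate 2 or 1B Control replicate 1 (adjusted p = 0.0582 and 0.0612), and Hist1h4i (0.65) lost it without 1A replicate 1 or 3 or 1B replicate 2 or 3 (adjusted p between 0.0574 and 0.134).

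In Protocol 1C over 1A, 4 of the 33 genes were higher (13.1%) and 1 was lower (7.91%). Hist1h2bc changed by 0.67 (SE 0.113, adjusted p = 0.000253), Hist1h1c by 0.70 (SE 0.116, adjusted p = 0.000255) and Hist3h2ba, an H2B gene of the Hist3 cluster, by 3.02 (SE 0.618, adjusted p = 0.00136) in edgeR, and these 3 kept the call with any 1 library left out. The call of Hist3h2a (0.75) was lost without 1A Control replicate 1 or 2 or 1C Control replicate 3 (adjusted p = 0.0923, 0.127 and 0.195). The lower gene, Hist1h3c (-3.41, adjusted p = 0.0163 in edgeR), was lost without 1A Control replicate 2 or 1C Control replicate 1, and the number of lower genes was 3 without 1C Control replicate 1 and 2 without its replicate 2. All genes called were 2230 higher and 1348 lower with TMM factors and 1745 higher and 1860 lower with library totals. The comparisons of 1B and 1C share the 1A Controls.

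HMGB1 was given to ask how microglia of each protocol respond to an alarmin. In all 3 variants of Protocol 1, Hist1h1c and Hist2h2be fell and Hist3h2a rose. In Protocols 2 and 3 no histone gene passed the test in the main fits, which filter low counts and have no replicate block. Without the filter, Hist1h3d was lower in Protocol 2. With the block, used because the replicate numbers of Protocol 2 pair its libraries, 3 genes were lower in that protocol. The dose of HMGB1 in Protocols 1 and 2 is not given in the sources used here, so dose and method cannot be told apart where responses differ. In Protocol 1A, 16 of the 67 genes were tested, 4 fell (31.6% of all genes did) and 1 rose (29.7%). In Protocol 1B, 3 of 19 fell (32%) and 1 rose (29.8%), and in Protocol 1C, 3 of 14 fell (31.8%) and 2 rose (28.4%). As shares of the genes tested, all 6 counts were below those of all genes. The medians of the tested histone genes were -0.63 in 1A, -0.34 in 1B and -0.49 in 1C, against -0.04, -0.02 and -0.04 for all genes. A low gene could pass the filter through the group where it was higher, so these counts and medians only describe the genes tested.

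Hist1h1c had 24.8, 20.9 and 24.2 CPM in HMGB1 libraries of Protocol 1A, against 74.1, 63.4 and 58.8 CPM in its Control libraries. In Protocol 1B it had 56.0, 46.0 and 51.8 CPM with HMGB1, against 130.4, 117 and 113 CPM in Control, and in Protocol 1C 33.9, 29.6 and 37.1 CPM, against 111, 95.2 and 94.8 CPM. Treated and Control libraries did not overlap in any of the 3 variants. The log2 fold change was -1.07 (SE 0.0972, adjusted p = 4.08e-07) in 1A, -0.76 (SE 0.0867, adjusted p = 2.21e-05) in 1B and -0.95 (SE 0.117, adjusted p = 2.6e-05) in 1C in edgeR.

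Hist1h2bc, the other abundant gene, had 22.8, 18.5 and 22.1 CPM in HMGB1 libraries of Protocol 1A, against 36.7, 34.8 and 37.4 CPM in its Control libraries. It had 28.7, 27.3 and 27.6 CPM with HMGB1 in 1B, against 52.3, 54.3 and 48.8 CPM in Control, and 28.0, 25.2 and 33.1 CPM in 1C, against 58.2, 47.7 and 57.7 CPM. The CPM did not overlap here either, but the fitted changes were smaller, at -0.36 (SE 0.102, adjusted p = 0.00747) in 1A, -0.42 (SE 0.0759, adjusted p = 0.000636) in 1B and -0.29 (SE 0.138, adjusted p = 0.0926) in 1C in edgeR, the last not past the threshold. In 1A its adjusted p was 0.0525 when all 30 libraries were fitted together.

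Hist2h2be, an H2B gene, also fell in all 3 variants. It had 2.09, 2.79 and 1.85 CPM in HMGB1 libraries of Protocol 1A, against 9.77, 8.19 and 8.20 CPM in its Control libraries, 3.18, 2.79 and 3.39 CPM in 1B, against 13.1, 11.8 and 12.3 CPM in Control, and 1.86, 1.39 and 1.08 CPM in 1C, against 8.94, 6.40 and 7.21 CPM. Each HMGB1 value was below the lowest Control value of its protocol, and the log2 fold changes were -1.52 (SE 0.199, adjusted p = 1.47e-05) in 1A, -1.51 (SE 0.149, adjusted p = 6.97e-06) in 1B and -1.74 (SE 0.251, adjusted p = 8.83e-05) in 1C in edgeR. None of its 50-base windows is shared with another gene, so its reads can be placed without such doubt.

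Hist3h2a moved the other way. This H2A gene had 5.43, 4.64 and 5.98 CPM in HMGB1 libraries of Protocol 1A, against 2.56, 2.28 and 2.94 CPM in its Control libraries. In 1B it had 8.63, 8.96 and 8.52 CPM with HMGB1, against 5.39, 7.53 and 5.37 CPM in Control, and in 1C 7.60, 8.95 and 8.40 CPM, against 3.04, 4.06 and 5.23 CPM. All HMGB1 values were above the Control values of the same protocol, with log2 fold changes of 1.46 (SE 0.215, adjusted p = 4.56e-05) in 1A, 0.98 (SE 0.167, adjusted p = 0.000430) in 1B and 1.63 (SE 0.211, adjusted p = 3.67e-05) in 1C in edgeR. Its model overlaps Trim17 on the same strand. Trim17 lay between 0.194 and 1.49 CPM over all 30 libraries, with 0.194, 0.663 and 1.49 CPM in 1A HMGB1 libraries and 0.791, 0.868 and 1.11 CPM in 1A Controls, and these overlap.

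The remaining calls were less firm. Hist1h1d fell in Protocol 1A, with a log2 fold change of -1.97 (SE 0.624, adjusted p = 0.0140), with an adjusted p of 0.0595 without 1A Control replicate 1 and 0.0578 with no filter. Hist1h3d fell in Protocol 1C, where it had 0.210, 0.269 and 0.0774 CPM with HMGB1 and 0.931, 0.908 and 0.707 CPM in Control, at -1.56 (SE 0.535, adjusted p = 0.0250) in edgeR. It was lost without 1C Control replicate 1 or 2 or HMGB1 replicate 1 or 3, with adjusted p between 0.0635 and 0.111. Hist1h4i rose in Protocol 1C, by 0.62 (SE 0.247, adjusted p = 0.0465), although its 2.63, 3.04 and 3.06 CPM with HMGB1 and 2.23, 3.63 and 2.88 CPM in Control overlap. With library totals its log2 fold change was -0.01, and the call was lost without 1C Control replicate 1 or 3 or HMGB1 replicate 2 or 3 (adjusted p between 0.0958 and 0.139). In 1A it had 2.76, 2.39 and 2.57 CPM with HMGB1 and 3.58, 3.91 and 2.88 CPM in Control, and in 1B 2.66, 4.74 and 3.499 and 4.13, 6.30 and 5.31 CPM, with fitted changes of -0.00 and -0.04. Leaving out 1B Control replicate 3 or 1B HMGB1 replicate 1 gave 2 higher genes in 1B.

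Other genes named for their class were low in Protocol 1. Hist2h3c2 had 0.339, 0.0884 and 0.956 CPM in HMGB1 libraries of Protocol 1A, against 1.16, 0.760 and 1.83 CPM in its Control libraries, 1.23, 1.05 and 1.01 against 1.98, 1.28 and 1.52 CPM in 1B and 0.210, 0.761 and 0.193 against 0.683, 1.39 and 1.93 CPM in 1C, with log2 fold changes of -1.09, -0.07 and -1.21 that did not pass the test. Hist1h1e had 0.582, 1.06 and 0.299 CPM in HMGB1 libraries of Protocol 1A, against 1.30, 2.22 and 0.998 CPM in its Control libraries, 1.17, 1.16 and 1.23 against 0.990, 1.02 and 2.09 CPM in 1B and 0.315, 0.537 and 0.310 against 0.807, 1.10 and 0.707 CPM in 1C. Its groups overlapped in 1A and 1B but not in 1C, and it was not called in any of them. Hist1h3d had 0.291, 0.354 and 0 CPM with HMGB1 and 0.605, 0.543 and 0.277 CPM in Control of 1A, and 0.260, 0.369 and 0.298 and 0.165, 0.461 and 1.201 CPM in those of 1B, below the filter in both. Hist1h2ac had 0.291, 0.221 and 0 against 0.0930, 0.380 and 0.277 CPM in 1A, 0.390, 0.948 and 0.298 against 0.660, 1.23 and 1.201 CPM in 1B and 0.0700, 0.0895 and 0.271 against 0.186, 0.239 and 0.283 CPM in 1C. Hist1h4h had 0.339, 0.133 and 0.0598 against 0.0465, 0.434 and 0.554 CPM in 1A, 0.260, 0.369 and 0.409 against 0.330, 0.410 and 1.07 CPM in 1B and 0.0700, 0.269 and 0.232 against 0.372, 0.717 and 0.566 CPM in 1C. Over the Protocol 1 libraries Hist1h2ac had 0 to 24 reads and Hist1h4h 1 to 17 reads. With library totals in place of TMM factors, Hist1h1e was called lower in 1A and 1C and Hist2h3c2 in 1C.

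**Figure D4:**
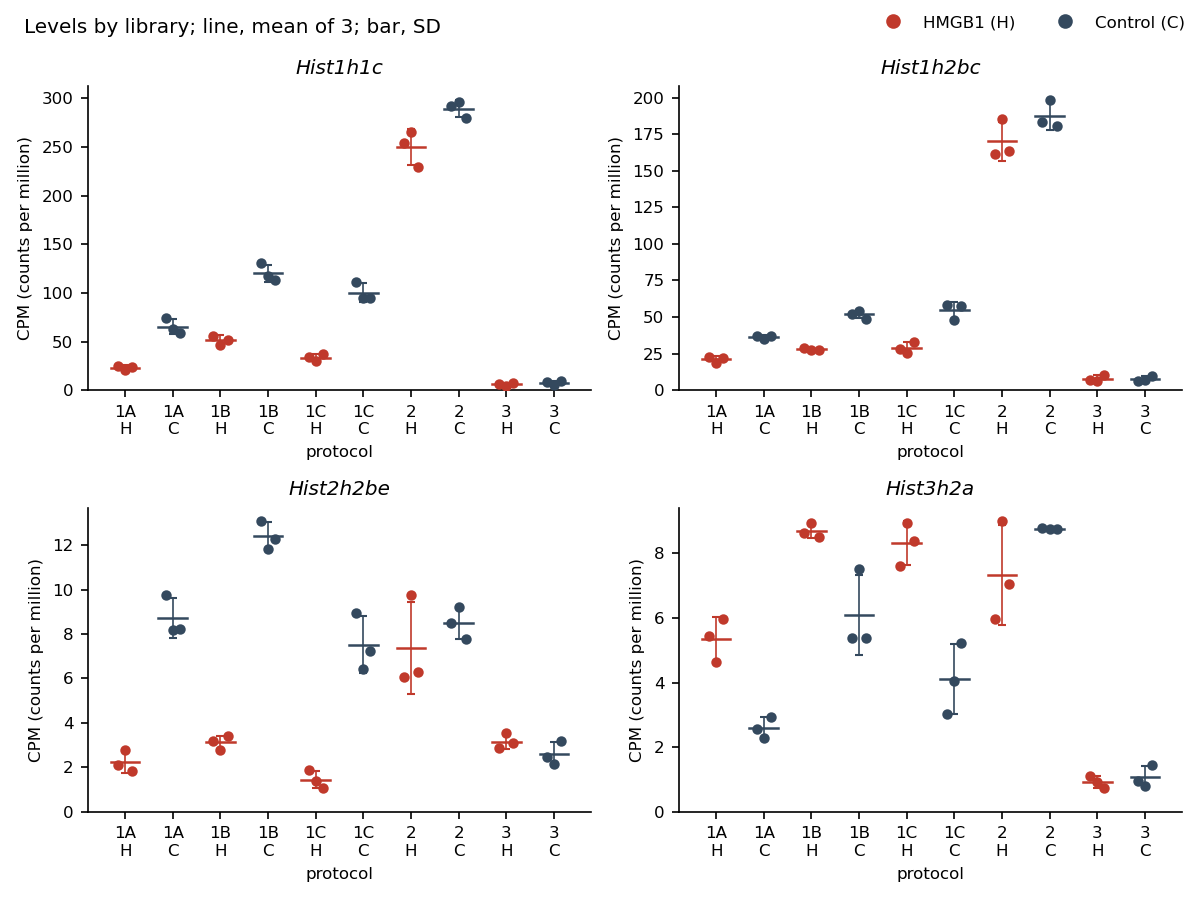
CPM of Hist1h1c, Hist1h2bc, Hist2h2be and Hist3h2a in each library (points), with the mean of 3 (line) and its SD (bar), for HMGB1 (red, H) and Control (dark, C) in each protocol. In Protocols 1A, 1B and 1C the red points of the first 3 genes lie below the dark ones and those of Hist3h2a above them.

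In Protocol 2, 0 of 31 histone genes rose and 0 fell by edgeR (1.21% and 0.283% of all genes), 2 were below an unadjusted p of 0.05, and DESeq2 called 0. Hist1h1c had 255, 265 and 229 CPM in HMGB1 libraries of Protocol 2, against 292, 297 and 280.2 CPM in its Control libraries, and the groups did not overlap, with a log2 fold change of -0.22 (SE 0.0637, adjusted p = 0.183). Hist1h3d had 1.27, 2.56 and 2.22 CPM with HMGB1 and 3.73, 4.65 and 3.22 CPM in Control, likewise without overlap, with -0.93 (SE 0.288, adjusted p = 0.216) in edgeR. The replicate numbers of Protocol 2 pair its libraries (r of 0.280 to 0.429 between same-numbered ones), and a fit with the replicate as a block called 3 genes lower, Hist1h1c at -0.22 (adjusted p = 4.46e-05), Hist1h3d at -0.95 (adjusted p = 0.00282) and Hist1h2bc at -0.14 (adjusted p = 0.0178).

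Hist1h2bc had 161, 186 and 163 CPM in HMGB1 libraries of Protocol 2, against 184, 198 and 180.3 CPM in its Control libraries, Hist2h2be 6.08, 9.75 and 6.29 CPM with HMGB1 and 8.49, 9.23 and 7.78 CPM in Control, and Hist3h2a 5.96, 9.01 and 7.06 and 8.78, 8.77 and 8.76 CPM. In each of these the groups overlapped, and the log2 fold changes were -0.14, -0.20 and -0.25. Of the lower genes, Hist1h4i had 6.61, 8.60 and 6.71 CPM with HMGB1 and 8.07, 7.95 and 7.62 CPM in Control, Hist2h3c2 3.92, 4.71 and 5.72 and 5.22, 6.51 and 7.29 CPM, and Hist1h1e 1.39, 1.89 and 1.61 and 1.90, 2.59 and 1.43 CPM. Hist1h2ac had 1.76, 2.34 and 1.73 CPM with HMGB1 and 1.16, 2.51 and 2.28 CPM in Control, and Hist1h4h 2.12, 1.71 and 1.42 and 2.11, 1.89 and 1.43 CPM. The groups overlapped for all 5.

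In Protocol 3, 0 of 19 genes rose and 0 fell by edgeR (0.123% and 0% of all genes), 0 had an unadjusted p below 0.05 and DESeq2 called 0. Hist1h1c had 6.80, 4.73 and 7.51 CPM in HMGB1 libraries of Protocol 3, against 8.45, 5.82 and 9.28 CPM in its Control libraries. Hist1h2bc had 6.76, 6.15 and 10.6 CPM with HMGB1 and 6.24, 7.17 and 9.88 CPM in Control, Hist2h2be 2.85, 3.53 and 3.09 and 2.48, 2.13 and 3.17 CPM, and Hist3h2a 1.09, 0.919 and 0.746 and 0.964, 0.782 and 1.45 CPM. All of these overlap between the groups. The smallest adjusted p among genes with a negative change was 0.987, for Hist1h4d (-0.81), and among those with a positive one 0.995, for Hist1h1d (0.23) and Hist1h1e (0.27) alike. Hist1h4i had 1.47, 0.424 and 1.01 CPM with HMGB1 and 1.47, 1.48 and 1.93 CPM in Control, Hist2h3c2 0.629, 0.353 and 0.533 and 0.597, 0.348 and 1.37 CPM, and Hist1h3d 0.420, 0.424 and 2.08 and 1.15, 1.61 and 1.89 CPM. Hist1h1e had 1.51, 1.91 and 2.13 CPM with HMGB1 and 1.01, 2.09 and 1.57 CPM in Control, Hist1h2ac 0.378, 0.283 and 0.266 and 0.321, 0.521 and 0.321 CPM, and Hist1h4h 0.336, 0.212 and 0.586 and 0.138, 0.348 and 0.562 CPM. For Hist1h4i no HMGB1 value lay above a Control value, and the groups met only as rounded, at 1.47 CPM. For the rest of these 6 genes, HMGB1 and Control libraries overlapped.

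The Protocol 1 responses depend in size on the scaling, and HMGB1 libraries there had lower TMM factors than Control libraries. With library totals the median log2 fold change of all genes was -0.46 in 1A, -0.50 in 1B and -0.67 in 1C. All genes called were 4008 higher and 4258 lower with TMM factors and 2008 higher and 7747 lower with library totals in 1A, 4049 higher and 4355 lower with TMM factors and 2080 higher and 7850 lower with library totals in 1B, and 4069 higher and 4563 lower with TMM factors and 2134 higher and 8578 lower with library totals in 1C. Hist1h1c and Hist2h2be remained lower and Hist3h2a higher in all 3 variants under this scaling, with Hist3h2a at 1.04 in 1A, 0.51 in 1B and 1.00 in 1C. Under it Hist1h2bc was called in all 3, at -0.78, -0.90 and -0.92. Markers of other cells moved with HMGB1 in Protocol 1 as well. The 4 endothelial genes summed to 22.98 ± 3.77 CPM in HMGB1 and 15.2 ± 4.67 CPM in Control libraries of 1A, 30.5 ± 6.60 and 8.58 ± 2.59 CPM in those of 1B, and 163 ± 29.8 and 51.7 ± 4.72 CPM in those of 1C, with Cldn5 at 0 in 1A Controls and in both groups of 1B and 1C. The 4 oligodendrocyte genes summed to 31.3 ± 3.92 and 104 ± 4.62 CPM, 40.4 ± 17.2 and 85.4 ± 5.45 CPM, and 72.4 ± 26.5 and 161 ± 47.1 CPM in the same order, with Mog at 0 in both groups of 1A. The 7 genes of neutrophils and their precursors summed to 15.7 ± 4.53 and 5.88 ± 0.605 CPM, 0.834 ± 0.262 and 0.267 ± 0.0981 CPM, and 7.43 ± 2.14 and 3.84 ± 1.57 CPM, with Retnlg and Elane at 0 throughout. Mpo was at 0 in both groups of 1A and 1B, S100a9 in both groups of 1B and 1C, and Ngp in 1A HMGB1 and 1C Control libraries. The 4 astrocyte genes summed to 43.5 ± 4.15 and 39.4 ± 5.83 CPM, 40.2 ± 12.3 and 30.5 ± 8.42 CPM, and 34.3 ± 4.43 and 33.3 ± 2.04 CPM in the same order. Of these, Aqp4 was at 0 in both groups of 1A and Gfap at 0 in 1A Controls. The 8 microglia genes summed to 1727 ± 55.4 CPM in HMGB1 and 2097 ± 131 CPM in Control libraries of 1A, 1927 ± 112 and 2671 ± 163 CPM in those of 1B, and 1435 ± 68.7 and 2483 ± 182 CPM in those of 1C. Among them, Cx3cr1 averaged 14.6 CPM in HMGB1 and 40.9 CPM in Control libraries of 1A, 17.6 and 37.6 CPM in those of 1B, and 7.45 and 25.4 CPM in those of 1C. The part of all these markers in the histone changes was not tested.

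**Figure D5:**
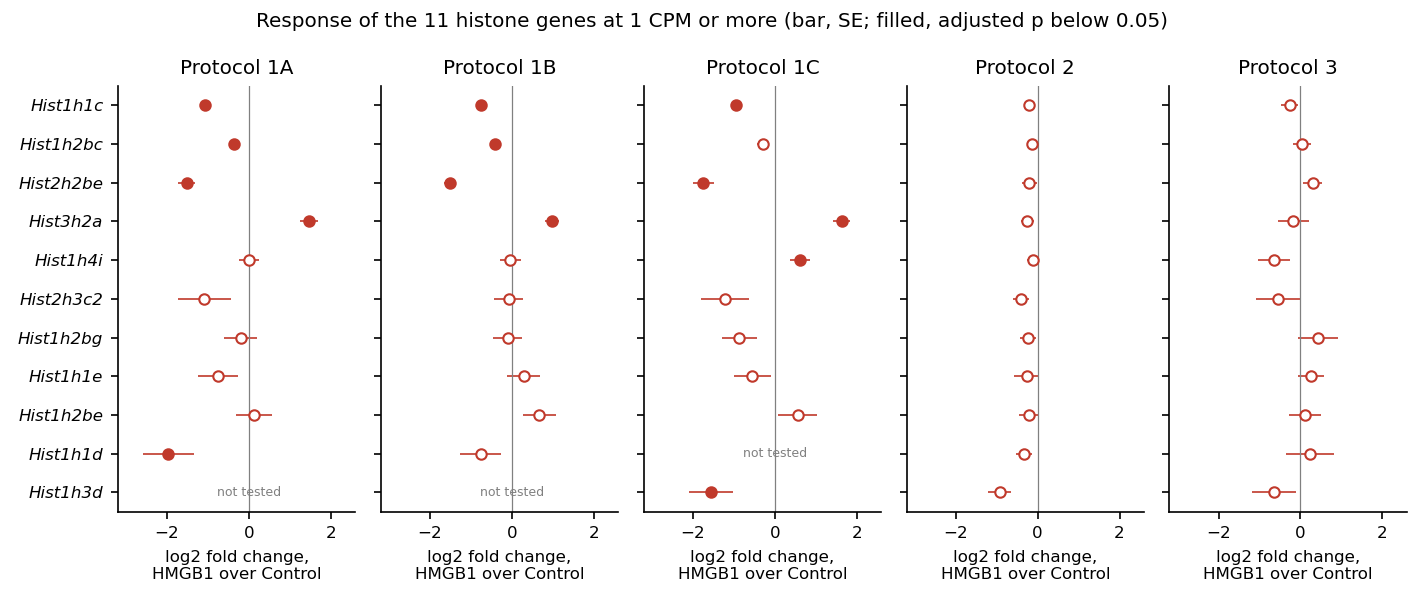
Log2 fold change of HMGB1 over Control (x axis, bar for SE) of the 11 histone genes at 1 CPM or more, in order of mean level, by protocol. Filled points have an adjusted p below 0.05 in edgeR and open points do not. Hist1h1c and Hist2h2be lie left of 0 and Hist3h2a right of it as filled points in Protocols 1A, 1B and 1C, and every point of Protocols 2 and 3 is open in these fits, which have no replicate block.

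Whether the responses differed between methods was tested directly, in a fit of all 30 libraries in which 34 histone genes passed the filter. The response of Hist3h2a was lower in Protocol 2 than in Protocol 1, with a difference in log2 fold change of -1.61 (SE 0.224, adjusted p = 3.8e-07), and those of Hist2h2be and Hist1h1c were higher, by 1.39 (SE 0.219, adjusted p = 3.15e-06) and 0.71 (SE 0.138, adjusted p = 9.08e-05) in edgeR. Here 2 histone genes were higher (22.9% of all genes) and 1 was lower (20.6%). For Protocol 3 minus Protocol 1 the same genes had -1.55 (SE 0.310, adjusted p = 0.000109), 1.88 (SE 0.245, adjusted p = 1.26e-07) and 0.65 (SE 0.173, adjusted p = 0.00284), in that order, and 2 histone genes were higher (20.2%) and 2 lower (22.5%). The other lower one was Hist1h4i, at -0.85 (SE 0.330, adjusted p = 0.0372). Its call was lost without 1A HMGB1 replicate 1, 1B Control replicate 1, 1B HMGB1 replicate 2, Protocol 3 Control replicate 3 or Protocol 3 HMGB1 replicate 2 or 3, with adjusted p between 0.0505 and 0.179, and 5 histone genes were higher without Protocol 3 Control replicate 3 or without HMGB1 replicate 2 of that protocol. The other 6 calls were kept with any 1 library left out, and both comparisons share the Protocol 1 libraries.

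Within Protocol 1, no histone gene had a response that differed from that of 1A by edgeR or DESeq2, where 3.7% of all genes were higher and 3.21% lower in 1B minus 1A, and 5.46% and 8.53% in 1C minus 1A. In 1B minus 1A, 1 gene had an unadjusted p below 0.05, Hist1h2ad at 4.62 (SE 2.07, adjusted p = 0.213), and in 1C minus 1A also 1, Hist1h4c at 3.61 (SE 1.40, adjusted p = 0.0859) in edgeR. All genes called were 4168 higher and 3754 lower with TMM factors and 8402 higher and 1915 lower with library totals for Protocol 2 minus Protocol 1, 3672 higher and 4094 lower with TMM factors and 7541 higher and 2019 lower with library totals for Protocol 3 minus Protocol 1, and 993 higher and 1551 lower with TMM factors and 708 higher and 3385 lower with library totals for 1C minus 1A. For 1C minus 1A the size factors of DESeq2 gave 1215 higher and 1032 lower.

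Genes that make and process histone mRNA were looked at beside the histone genes, as 17 names of which 16 were tested, Zcchc6 being an older name of Tut7. In Protocol 1A, 9 of the 16 fell (31.6% of all genes did) and 2 rose (29.7%). In Protocol 1B 10 fell (32%) and 2 rose (29.8%), and in Protocol 1C 7 fell (31.8%) and 3 rose (28.4%). The medians of the list were -0.28, -0.42 and -0.30 in the same order. Slbp averaged 25.5 ± 0.368 CPM with HMGB1 and 39.4 ± 1.87 CPM in Control of 1A, and its log2 fold change was -0.20 (SE 0.0794, adjusted p = 0.0385) in 1A, -0.48 (SE 0.0939, adjusted p = 0.00106) in 1B and 0.04 (SE 0.0944, adjusted p = 0.735) in 1C. Npat, which activates histone genes in S phase, and Casp8ap2, a partner in the 3′ cut, fell in 1A (-0.33 and -0.46) and 1B (-0.53 and -0.55), and in 1C had 0.02 and -0.23, neither past the threshold. Cdk2 fell in all 3 variants, at -0.99 (SE 0.0883, adjusted p = 3.01e-07) in 1A and -1.86 (SE 0.151, adjusted p = 7.56e-07) in 1C, while Cpsf2, a subunit of the cleavage complex, rose by 0.81 (SE 0.0617, adjusted p = 5.54e-08) in 1A and 1.01 (SE 0.0970, adjusted p = 3.18e-06) in 1C. Tut7, which adds uridines to RNA ends, rose in 1A (1.46 (SE 0.0804, adjusted p = 1.89e-09)) and 1C (2.20 (SE 0.0972, adjusted p = 5.16e-09)). In Protocols 2 and 3 the smallest adjusted p of the list was 0.135 for Zfp473 and 0.936 for Casp8ap2.

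The 14 S phase genes, among them Pcna and the Mcm helicase subunits, code for proteins that copy DNA. They summed to 449 ± 11.1 CPM in HMGB1 and 964 ± 54.3 CPM in Control libraries of 1A, 517 ± 71.7 and 1194 ± 116 CPM in those of 1B, 474 ± 29.4 and 914 ± 52.1 CPM in those of 1C, 470.0 ± 41.1 and 452 ± 5.89 CPM in those of Protocol 2 and 350.1 ± 11.2 and 351 ± 14.4 CPM in those of Protocol 3. In Protocol 1A, 13 of the 14 fell (31.6% of all genes did) and 0 rose (29.7%). In 1B 12 fell (32%) and 0 rose (29.8%), and in 1C 10 fell (31.8%) and 1 rose (28.4%). Mcm2 had log2 fold changes of -1.63, -1.99 and -1.86 in the same order. In Protocols 2 and 3 the smallest adjusted p of these S phase genes was 0.494 for Mcm3 and 0.995 for Cdc45 in edgeR. Between Control libraries, all 14 S phase genes were higher in Protocol 1 than in Protocol 2 (24.6% of all genes were), with a median of 1.00. Slbp was also higher in Protocol 1 than in Protocol 2, by 0.84 (SE 0.0798, adjusted p = 3.23e-08), and lower in Protocol 2 than in Protocol 3, at -1.72 (SE 0.0941, adjusted p = 1.2e-12) in edgeR, at 39.4 ± 1.87 CPM in 1A, 19.0 ± 2.47 CPM in Protocol 2 and 50.3 ± 4.07 CPM in Protocol 3 Controls (SD, n = 3 each).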

How the data were processed

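Counts per gene were deposited for all 30 libraries in 1 table. The reads had been aligned by HISAT2 2.0.5, and featureCounts 1.5.0-p3 made the counts, as the authors' processing notes name them. Whether counting used strand is not given in the sources used here. The positions of all 67 genes match GENCODE M21 (GRCm38), and 7 of them overlap another gene on the same strand and 21 on the other strand. The histone genes and the lists beside them were chosen with earlier results of these data known.

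CPM used library totals. Tests were edgeR 4.0.16 quasi-likelihood fits (robust) with TMM factors and filterByExpr in R 4.3.3, with Benjamini-Hochberg adjustment over all genes tested and a threshold of 0.05. Responses were fitted within each protocol (6 libraries), Control comparisons on 15 libraries and differences of response on all 30. Genes were named as the 2 highest of each class, the 2 smallest adjusted p values in each direction, up to 5 called against the majority and all at 1 CPM or more. Of each list up to 3 of smallest adjusted p were named, with Slbp, Npat and Casp8ap2. Other named genes were picked after their values were seen.

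Alternatives were DESeq2 1.42.0 (size factors, Wald test), no filter, totals without mitochondrial and rRNA genes, a log2 fold change of at least 1, a replicate block, each library left out, other libraries in a fit and, chosen after seeing the data, library totals and TMM-scaled CPM. The labels call the 3 libraries of a group biological replicates, and 0 of 30 replicate pairs were identical, the lowest chi-square per gene being 4.78. Same-numbered libraries deviated together in Protocols 1B (r of 0.176 to 0.409), 2 (0.280 to 0.429) and 3 (0.191 to 0.283), which were read as paired. The main fits nevertheless had no block for the replicate, which entered only as an alternative. At 14151983 counts or more a library, 1 CPM is at least 14 reads. Promoter sequences are from RefSeq (GRCm38.p6).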

Additional observations from a re-analysis of the deposited data

Results flagged for a closer look

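For 7 results the response to HMGB1 differed between methods by the test of the difference itself (edgeR, all 30 libraries). In Protocol 2 minus Protocol 1 these were Hist1h1c, with a difference in log2 fold change of 0.71, Hist2h2be, with 1.39, and Hist3h2a, with -1.61. In Protocol 3 minus Protocol 1 they were Hist1h1c, with 0.65, Hist2h2be, with 1.88, Hist3h2a, with -1.55, and Hist1h4i, with -0.85. Groups of 3 libraries are too small for a search for outlying libraries, and none was made.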

How the results depend on the processing

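Of 88 calls of single histone genes, 52 held under every alternative in which the gene was tested. Another 36 were lost under at least 1, and 1 of these changed sign. A gene that dropped out of a fit was not counted as lost there. Hist3h2ba in 1B over 1A, counted as held, was not tested with only the compared groups in the fit. The call that changed sign was Hist1h4i in Protocol 1C, at -0.0125 with library totals. The cause was not tested in any case. With library totals, chosen after seeing the data, 8 genes were lower in 1A, 8 lower and 1 higher in 1C, 3 lower in Protocol 1 over Protocol 3, 7 higher in the difference of response of Protocol 2 minus 1, and 7 higher and 1 lower in that of Protocol 3 minus 1. With a log2 fold change of at least 1 required, 0 were higher and 1 lower in 1B, 1 higher in 1C, 3 higher in 1B over 1A, 1 higher in 1C over 1A, 1 higher in the difference of Protocol 2 minus 1, and 1 higher and 1 lower in that of Protocol 3 minus 1. With no filter, 1 was lower in Protocol 2, 2 lower in 1C over 1A and 1 lower in the difference of Protocol 3 minus 1. With all 30 libraries in a fit 5 were lower in 1C, and with only the compared groups 3 were lower in Protocol 1 over 3 and 1 in Protocol 2 over 3. Sums of CPM scaled by TMM factors, likewise chosen after seeing the data, were 71.3 CPM in HMGB1 and 110.1 CPM in Control libraries of 1A, 122 and 178 CPM in 1B, 108 and 157 CPM in 1C, and 513 CPM in Protocol 2 Controls.

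With a replicate block, 3 genes were lower in Protocol 2, Hist1h2bc was added in 1C, in Protocol 2 minus 1 and in Protocol 3 minus 1, and 1 gene was higher in the difference of 1C minus 1A (Hist1h4c, 3.81, adjusted p = 0.0473 in edgeR). The block changed no other call of a response. In 1A and 1C the same-numbered libraries correlated less than in the other protocols (r of 0.029 to 0.107 and 0.092 to 0.145). In each case the best match still carried the same number, and no cut-off for pairing was set.

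With 1 library left out, the higher and lower genes numbered 1 to 1 and 3 to 5 in 1A, 1 to 2 and 3 to 3 in 1B, 1 to 3 and 2 to 4 in 1C, and 0 to 0 in either direction in Protocols 2 and 3. They numbered 6 to 8 and 4 to 10 in Protocol 1 over 3, 0 to 1 and 19 to 22 in Protocol 1 over 2, 15 to 16 and 0 to 4 in Protocol 2 over 3, 6 to 7 and 0 to 0 in 1B over 1A, and 3 to 5 and 0 to 3 in 1C over 1A. For the differences of response they numbered 2 to 3 and 1 to 1 in Protocol 2 minus 1, 2 to 5 and 1 to 2 in Protocol 3 minus 1, and 0 to 0 in those within Protocol 1. Depth limits the genes below 1 CPM, where 56 of the 67 lie.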

Other observations

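Replication-independent histone variants, made outside S phase as well, were measured in the same libraries, as 11 genes. HMGB1 was followed by 3 higher and 5 lower in Protocol 1A (29.7% and 31.6% of all genes), 3 higher and 7 lower in 1B (29.8% and 32%), and 3 higher and 4 lower in 1C (28.4% and 31.8%), with 0 higher and 1 lower in Protocol 2 (1.21% and 0.283%). As shares of 11, the counts of higher genes in Protocol 1 and the lower count in 1C are near those of all genes. H3f3b, which encodes H3.3, rose in all 3 variants, with log2 fold changes of 1.497, 1.48 and 1.70 in 1A, 1B and 1C. H2afv had -1.52 in 1A and -1.44 in 1B, H2afx, the variant phosphorylated at DNA breaks, -0.68 in 1A and -1.58 in 1C, and the linker variant H1f0 -0.93 in 1B and -1.22 in 1C. The gene called in Protocol 2 was Cenpa, the centromere variant, at -0.87 (adjusted p = 0.00549 in edgeR). Between Controls, 10 of the 11 were higher in Protocol 1 than in Protocol 3 (37.3% of all genes), with H3f3b the lower one at -2.48. Set against Protocol 2 instead, 5 variants were higher in Protocol 1 Controls and 2 were lower (24.6% and 30.7% of all genes).

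Of 18 histone chaperone genes, 4 rose and 8 fell in 1A, 6 rose and 9 fell in 1B, and 3 rose and 9 fell in 1C after HMGB1, to be read against the same shares of all genes, to which the share that rose in 1B is close. Chaf1a, a subunit of the factor that places H3 and H4 behind the replication fork, had -1.26, -1.49 and -1.63 in 1A, 1B and 1C. Hat1, which acetylates new H4, rose by 0.60 in 1A and 1.73 in 1C, and Daxx, an H3.3 chaperone, by 4.22 in 1B and 3.68 in 1C. The smallest adjusted p of the list in edgeR was 0.642 in Protocol 2, for Daxx, and 0.995 in Protocol 3, for Asf1b, and neither passed the threshold. Against Protocol 2 Controls, 12 of the 18 were higher in Protocol 1 Controls (24.6% of all genes).

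Of the 13 listed RNAs without a poly(A) tail, 2 passed the filter. Rn7sk had -3.00 and Scarna2 -3.08 in Protocol 1 over Protocol 3 Controls, and -2.89 and -2.82 in Protocol 2 over Protocol 3 Controls. After HMGB1 both fell in 1A, at -1.09 and -1.04, and Rn7sk rose in 1C, at 1.06. The 4 astrocyte genes summed to 1.73 CPM in HMGB1 and 1.49 CPM in Control libraries of Protocol 3, and to 30.5 to 58.1 CPM in the means of the other groups.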
